A study of Mus musculus with 24 samples.

Results

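The suppressors of cytokine signaling are a family of 8 genes, Cish and Socs1 to Socs7, and their transcripts were followed in mouse embryonic fibroblasts (MEFs) that had or lacked the kinase LKB1. The members were taken by gene symbol, as all 8 genes of the family among the 55471 genes of the count tables, and all 8 had enough reads to be tested. RNA-seq was done on 24 libraries, 3 in each of 8 groups, from 3T3 MEFs, which are immortalized fibroblasts. The groups were WT cells, LKB1 knockout cells (Lkb1-/-, with knockout of Stk11, the gene for LKB1), and the LKB1/CRTC2 knockout clones A1 and A2, each left as control or given IL-1β, a cytokine that signals through NF-κB. IL-1β was given for 6 hours, at 0.1 ng/mL by the study's methods. The clones came from Lkb1-/- cells after CRISPR editing of the first exon of Crtc2, which encodes a coactivator of the transcription factor CREB, so each clone also lacks LKB1 and is 1 clone. The study lists the WT and Lkb1-/- MEFs as separate cell lines, so differences of genotype and of line cannot be told apart between them. The labels do not say whether replicates were separate cultures, so p-values measure only the spread between these libraries, which may be technical.

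SOCS proteins carry an SH2 domain, which binds phosphorylated tyrosines of cytokine receptors and JAK kinases, and a SOCS box, which recruits Elongin B, Elongin C and Cullin 5 to attach ubiquitin to the bound partner. Several members are themselves switched on by STAT factors, so they form a negative feedback loop. SOCS1 is known as a brake on interferon receptors, SOCS3 on receptors that share gp130, such as the IL-6 receptor, and CISH and SOCS2 on growth hormone and other STAT5-coupled receptors, whereas SOCS4 to SOCS7 are less well understood.

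Promoter sequences from RefSeq (GRCm38.p6) matched 4 of the 8 members, namely Cish, Socs1, Socs3 and Socs4. The 250 bases before the start of the RefSeq transcript, which for Cish and Socs3 lies inside the gene's span given further on, are shown for Socs3 and Cish, which changed most among these 4, and for Socs1, another STAT-induced member whose level changed little. Capitals mark matches to the motifs searched on both strands, which were STAT (TTCNNNGAA), STAT with 1 more base in the spacer, a full CREB site (TGACGTCA), its core (TGACG, which lies inside the full site), NF-κB and AP-1 (TGANTCA). Socs3 held 1 STAT match, from base 154 to base 146 before the start, and 7.01% of 32817 promoter windows of this length held such a match. Cish held 1 match to the CREB core, from base 97 to base 93 before the start, as 17.7% of windows did. Socs1 and Socs4 held no match to these letters in this window. In Socs4, a match to the CREB core reached past the window, from the last base before the start to base 4 counted from the start. In Cish, a pair of STAT matches lay from base 1 to base 20 counted from the start, and 0.457% of windows of 300 bases held at least 2 matches. A match is a description of letters and not a bound site.
Socs3, chr11:117969367-117969616, minus strand: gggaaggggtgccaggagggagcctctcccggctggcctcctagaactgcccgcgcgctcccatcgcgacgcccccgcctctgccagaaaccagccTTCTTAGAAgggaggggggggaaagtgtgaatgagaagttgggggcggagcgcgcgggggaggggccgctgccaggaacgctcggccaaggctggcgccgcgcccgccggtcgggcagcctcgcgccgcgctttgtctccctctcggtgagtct
Cish, chr9:107296409-107296658, plus strand: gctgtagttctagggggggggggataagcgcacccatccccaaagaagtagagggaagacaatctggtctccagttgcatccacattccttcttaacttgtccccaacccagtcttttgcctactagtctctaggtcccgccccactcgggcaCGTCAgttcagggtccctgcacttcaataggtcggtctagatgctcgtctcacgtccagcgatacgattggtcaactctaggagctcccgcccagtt
Socs1, chr16:10785537-10785786, minus strand: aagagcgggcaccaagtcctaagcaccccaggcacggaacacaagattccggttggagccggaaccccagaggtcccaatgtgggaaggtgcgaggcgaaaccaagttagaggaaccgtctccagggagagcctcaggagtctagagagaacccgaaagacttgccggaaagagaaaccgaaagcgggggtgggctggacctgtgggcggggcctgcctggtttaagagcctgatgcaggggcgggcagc
Cish, pair of STAT matches, chr9:107296659-107296678, plus strand: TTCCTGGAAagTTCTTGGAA

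In the GENCODE M21 annotation of the same build, Cish (ENSMUSG00000032578) spans chr9:107296026-107302784 and Socs1 (ENSMUSG00000038037) chr16:10782240-10785536. Socs2 (ENSMUSG00000020027) spans chr10:95385362-95417180, on the chromosome that carries Stk11, and Socs3 (ENSMUSG00000053113) chr11:117966079-117970047. Socs4 (ENSMUSG00000048379) lies at chr14:47276931-47296102, Socs5 (ENSMUSG00000037104) at chr17:87107679-87137839, Socs6 (ENSMUSG00000056153) at chr18:88665224-88927481 and Socs7 (ENSMUSG00000038485) at chr11:97362551-97398542. Cish overlaps the genes Gm17040 and Gm17041 on the other strand, and its counts summed over all libraries were 1585 on its own strand but 718 without regard to strand, where STAR counts a read that overlaps more than 1 gene for none of them. Socs6 overlaps 3 processed pseudogenes, 2 of them on its own strand, so its counts are uncertain to that extent.

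Each library held between 38842901 and 48594394 read counts on genes (median 42431965). Stk11 stood at 86.0 ± 1.68 CPM (CPM is the read count relative to the TMM-scaled library size, mean ± SD, n = 3) in untreated WT MEFs and between 16.8 and 22.5 CPM on average in the 6 groups that lack LKB1. Crtc2 stood at 81.2 ± 1.80 CPM in untreated Lkb1-/- MEFs, 42.9 ± 2.11 in A1 and 49.8 ± 0.864 in A2, and small edits in an exon need not remove its reads. Of 12 fibroblast markers, Thy1 and Lum were below 1 CPM in every group, and the summed level of the list lay between 5761 and 10600 CPM per library. In untreated cells it was 6824 to 8351 CPM in WT, 7567 to 8576 in Lkb1-/-, 9702 to 10600 in A1 and 6616 to 8872 in A2 libraries. The sum does not show changes of single markers. Epithelial markers summed to at most 0.499 CPM per library, with all 6 below 1 CPM in every group. The sum of the 4 endothelial markers was 0.370 to 0.678 CPM in WT libraries and 2.06 to 3.85 CPM in libraries that lack LKB1. Pecam1, Cdh5 and Tek were below 1 CPM in every group, so that Kdr alone exceeded it. The sum of the 8 leukocyte markers was 2.53 to 5.18 CPM in WT, 4.32 to 6.26 CPM in Lkb1-/- and 5.84 to 8.98 CPM in clone libraries. The Lkb1-/- range overlapped both of the others. Ptprc, Adgre1, Itgam, Tyrobp, Cd3e and Cd79a were below 1 CPM in every group, so that only Csf1r and Cd68 reached it. The part of these marker levels in the differences between genotypes was not tested. Replicates differed by more than counting noise in every pair, and replicate 1 stood apart in all 8 groups: the chi-square per degree of freedom was 37.9 to 107 between replicate 1 and replicates 2 or 3, and 7.46 to 18.8 between replicates 2 and 3. A fit of replicates 2 and 3 alone, chosen after seeing the data, is given beside each result whose call it changed. In that fit the log2 fold change of untreated Lkb1-/- over WT MEFs was -5.76 (FDR = 6.6e-12) for Socs2 and 1.28 (FDR = 3.7e-05) for Socs3, and that of untreated A2 over Lkb1-/- MEFs was 0.81 (FDR = 0.0023) for Socs3.

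Socs2 and Socs3 varied most across the groups, and they moved in opposite directions in Lkb1-/- MEFs. The means of the 8 groups differed up to 64.8-fold for Socs2, 5.11-fold for Socs3 and 2.91-fold for Cish, and between 1.32-fold and 1.46-fold for the other members. In this RNA from many cells, fewer cells that express a gene and less RNA of it per cell cannot be told apart. Compared per length, as FPKM (CPM per kilobase of exon), Socs4 and Socs5 were the most abundant members in untreated WT MEFs, at 17.8 ± 0.689 and 14.0 ± 0.389. Socs3 followed at 7.13 ± 0.545 and Socs6 at 6.01 ± 0.251. Socs7 was at 4.73 ± 0.203, Socs2 at 3.72 ± 0.0919, Socs1 at 3.004 ± 0.403 and Cish at 0.208 ± 0.0386 (SD, n = 3 throughout).

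**Figure D1:**
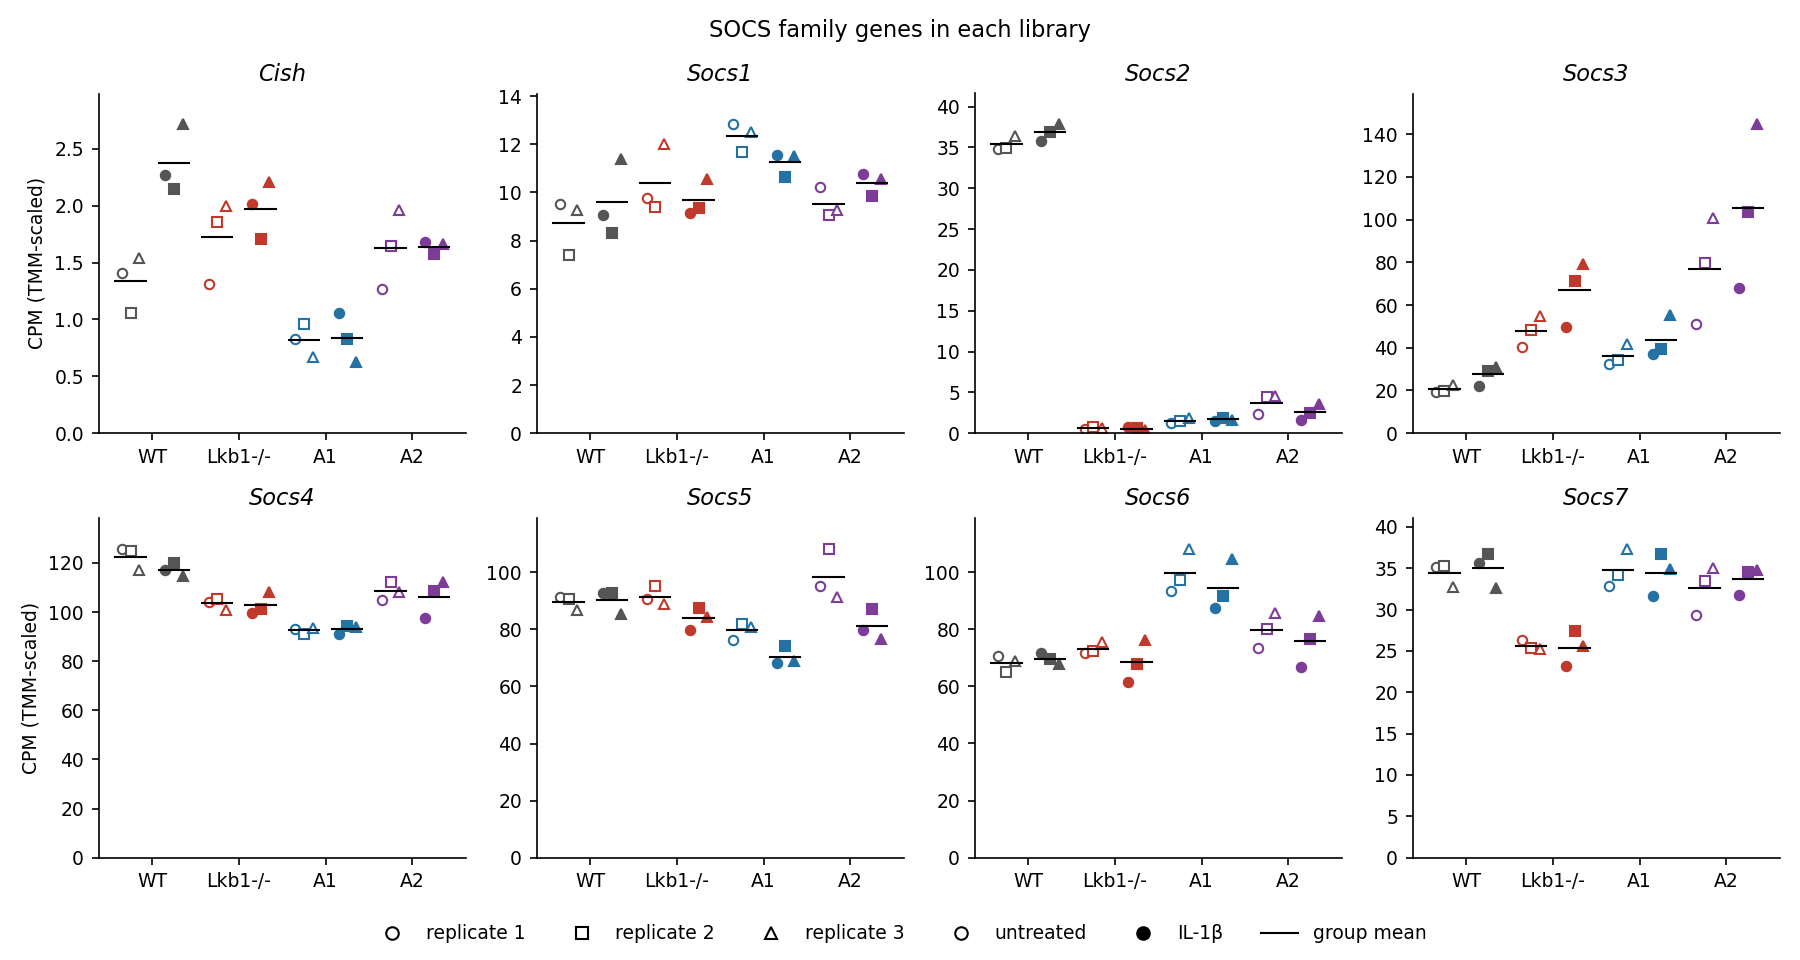
Level of each SOCS family gene in each library, in TMM-scaled CPM on a linear axis that starts at 0; open symbols are untreated and filled symbols IL-1β-treated libraries, circles, squares and triangles are replicates 1, 2 and 3, and lines are group means. Socs2 is at 34.8 CPM or more in WT libraries and at 4.51 CPM or less in all others, Socs3 is lowest in WT and highest in A2 libraries by group mean, Cish is lowest in A1 libraries, and replicate 1 is the lowest of its group for Socs3 in all 8 groups.

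The make-up of the family's transcripts shifted toward Socs3 in Lkb1-/- MEFs. Socs3 held 12.6% ± 1.08 of the summed FPKM of the 8 genes in untreated WT MEFs, 27.6% ± 2.96 in Lkb1-/- MEFs, 22.0% ± 1.85 in A1 and 35.8% ± 7.29 in A2 (SD, n = 3). After IL-1β, its share was 16.1% ± 2.55, 35.6% ± 4.42, 26.5% ± 3.87 and 44.5% ± 8.15 in the same order. The share of Socs2 was 6.57% ± 0.228 in untreated WT MEFs and 0.106% ± 0.0173 in Lkb1-/- MEFs. Socs4, which held 31.5% ± 1.03 of the sum in untreated WT MEFs, held 19.6% ± 2.40 in IL-1β-treated A2 MEFs. The summed FPKM itself ranged from 56.4 ± 3.06 in untreated A1 to 80.0 ± 15.2 in IL-1β-treated A2 MEFs.

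**Figure D2:**
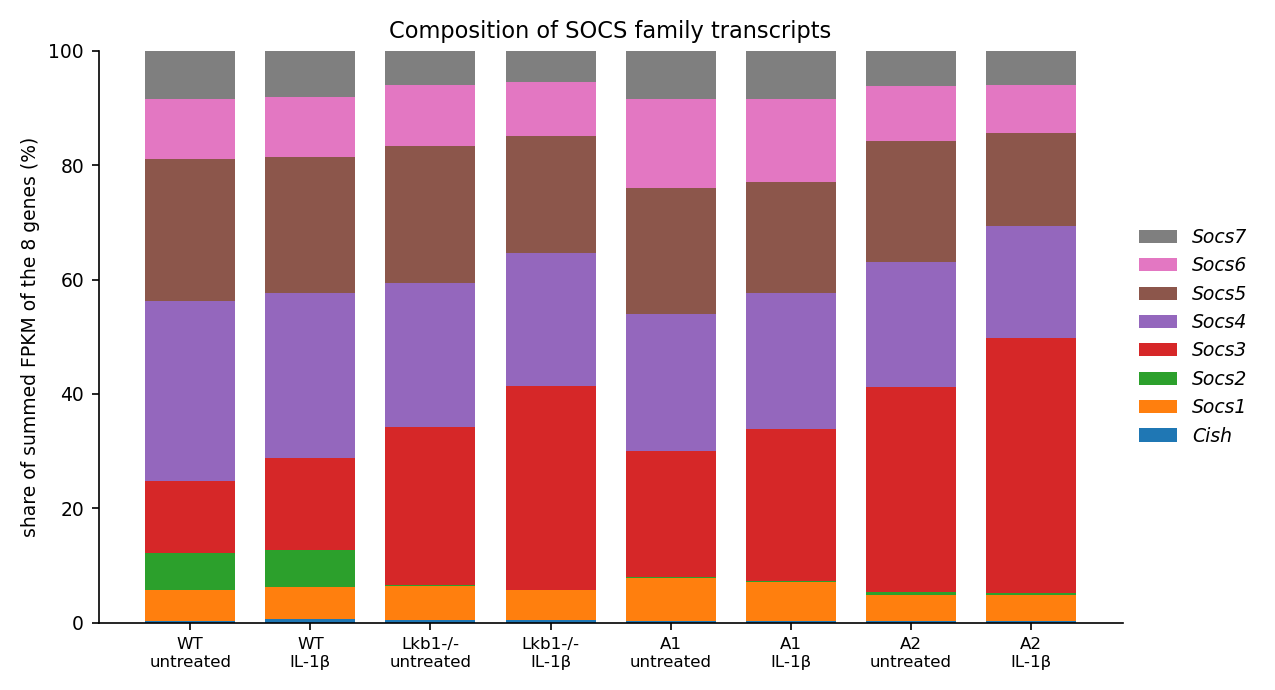
Mean share of each gene in the summed FPKM of the 8 SOCS family genes, in percent, for each of the 8 groups (n = 3 libraries per group). The Socs3 segment grows from 12.6% in untreated WT to 44.5% in IL-1β-treated A2 MEFs, and the Socs2 segment of 6.57% in untreated WT is near 0 in every group that lacks LKB1.

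The comparison of Lkb1-/- with WT MEFs asks which members differ between the Lkb1-/- and the WT line. In untreated cells, Socs2 fell to a small fraction of its WT level, Socs3 more than doubled, and Socs4 and Socs7 fell slightly. Members were called when the edgeR quasi-likelihood test gave a Benjamini-Hochberg FDR under 0.05 over all 17522 genes tested. Of the 8 members, 1 was called higher and 3 lower, while 30.1% of all genes tested were called higher and 25.8% lower. After IL-1β the count was again 1 higher and 3 lower, beside 30.2% and 27.1% of all genes. The median log2 fold change of the 8 members was 0.06 untreated and -0.15 after IL-1β, beside 0.04 and 0.03 over all genes.

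Socs2, the feedback inhibitor best known for restraining growth hormone signaling, gave 34.81, 34.99 and 36.41 CPM in the 3 untreated WT libraries and 0.498, 0.719 and 0.595 CPM in the Lkb1-/- libraries. After IL-1β the values were 35.8, 36.9 and 37.8 CPM in WT and 0.696, 0.603 and 0.408 CPM in Lkb1-/- MEFs. All WT libraries lay far above all Lkb1-/- libraries, and the Lkb1-/- values rest on 17 to 31 counts per library against 1396 to 1579 in WT. The log2 fold change was -5.87 ± 0.275 (SE, FDR = 1.4e-13) untreated, or 58.4-fold lower, and -6.01 ± 0.277 (FDR = 1e-13) after IL-1β, or 64.4-fold lower. Ghr, the growth hormone receptor, also fell in untreated Lkb1-/- MEFs, by 1.34 on the log2 scale (SE 0.226, FDR = 3.2e-05), from 53.7 to 21.3 CPM on average. Ghr was chosen after its value was seen. As given further on, Stat5b also fell, Stat5a rose and Cish was not called, and a link of Ghr to the fall of Socs2 was not tested.

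Genes of chromosome 10, which carries both Socs2 and Stk11, were lower in Lkb1-/- MEFs as a group. The median log2 fold change of the other 813 tested genes of the chromosome was -0.44, against 0.06 for the genes of all other chromosomes. Of the 25 tested genes whose lower coordinate lay within 2 Mb of that of Socs2, 17 were called lower and 3 higher, with a median of -0.85 and a range from -3.80 to 3.03. Socs2 had the third lowest value of the chromosome in untreated cells and lay below all of these neighbours. After IL-1β it had the second lowest value and lay below all of them but Gm47708 (FDR = 0.0016), a gene at 1, 10 and 18 counts in IL-1β-treated WT libraries and at 0 in all 3 IL-1β-treated Lkb1-/- libraries, whose fitted value is therefore no measure of size. Stk11 itself, at -15.3 Mb from Socs2, fell by 2.31 on the log2 scale. The part of this shift of the chromosome in the fall of Socs2 was not tested.

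**Figure D3:**
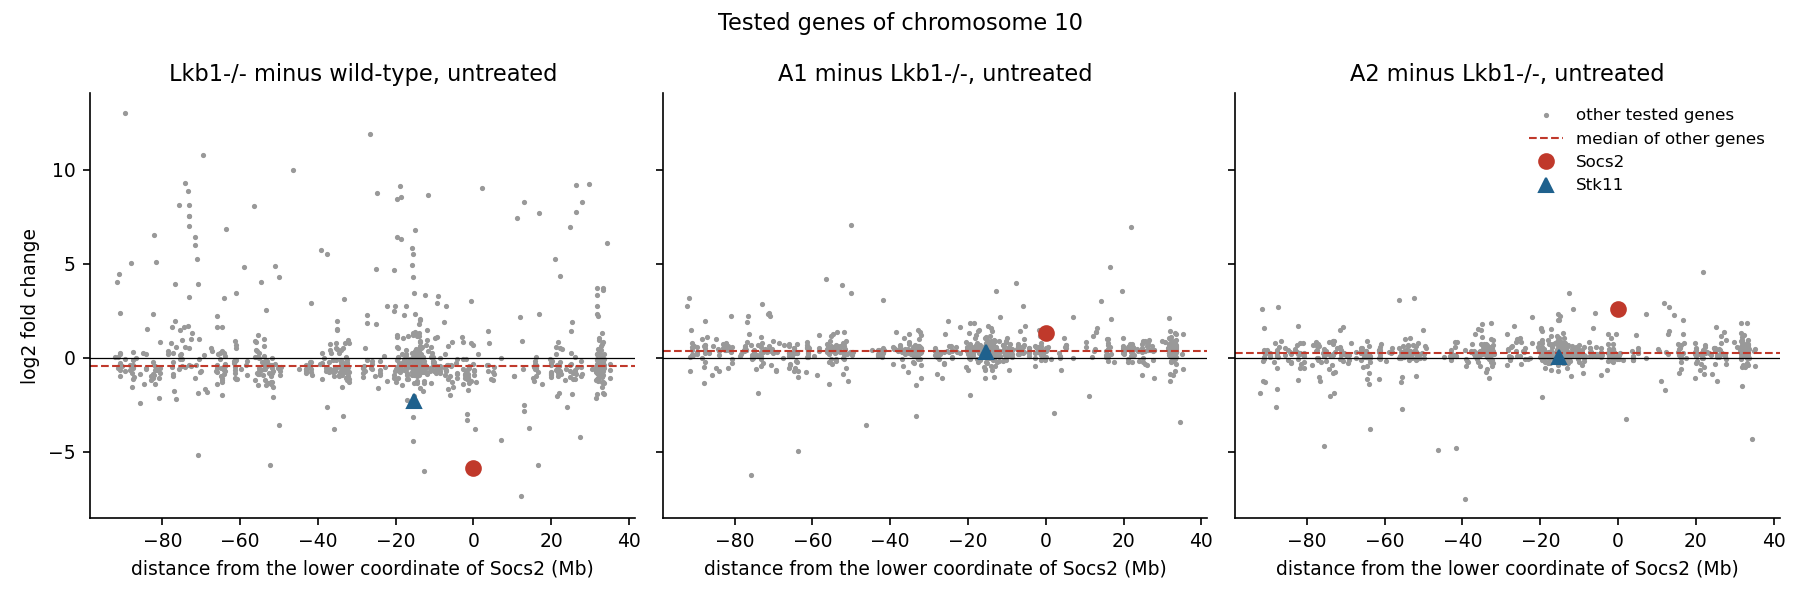
Log2 fold changes of the tested genes of chromosome 10 (vertical axis) by distance in Mb from the lower coordinate of Socs2 (horizontal axis) in 3 comparisons of untreated cells; the red circle is Socs2, the blue triangle Stk11, grey points other genes and the dashed line their median. In Lkb1-/- against WT the median is -0.44 and Socs2 lies at -5.87; in A1 and A2 against Lkb1-/- the medians are 0.39 and 0.27 and Socs2 lies at 1.33 and 2.62.

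Socs3, the inhibitor of gp130 receptors, gave 19.5, 19.9 and 22.4 CPM in untreated WT libraries and 40.5, 48.1 and 54.8 CPM in Lkb1-/- libraries. After IL-1β, WT libraries gave 22.0, 29.3 and 31.2 CPM and Lkb1-/- libraries 49.6, 71.5 and 79.4 CPM. The lowest Lkb1-/- library exceeded the highest WT library under both treatments. The log2 fold change was 1.21 ± 0.256 (SE, FDR = 0.00036), or 2.32-fold, untreated and 1.28 ± 0.254 (FDR = 0.00018), or 2.43-fold, after IL-1β.

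Socs7 and Socs4 fell less. Socs7 gave 35.2, 35.3 and 32.7 CPM in untreated WT libraries and 26.3, 25.3 and 25.2 CPM in Lkb1-/- libraries, without overlap, and fell by 0.42 ± 0.0801 on the log2 scale (SE, FDR = 0.00012), and by 0.46 ± 0.0801 after IL-1β (FDR = 4.1e-05). Chromosome 11, where Socs7 and Socs3 lie, had a median of -0.13 in untreated cells. Socs4 gave 126, 125 and 117 CPM against 104, 106 and 101 CPM, also without overlap, and fell by 0.24 ± 0.0526 (FDR = 0.00045). The 43 tested genes within 2 Mb of Socs4 had a median of -0.31 untreated, with 18 called lower and 6 higher, and -0.35 after IL-1β, while chromosome 14 had a median of -0.02 untreated, and the part of this local shift in the fall of Socs4 was not tested. In IL-1β-treated MEFs, the log2 fold change of Socs4 was -0.19 ± 0.0526 (FDR = 0.0042), and it was not called with upper quartile scaling (-0.09, FDR = 0.12), without the filter on low counts (-0.16, FDR = 0.15) or in a fit of the compared groups alone (-0.16, FDR = 0.056).

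The remaining 4 members were not called between Lkb1-/- and WT MEFs. Socs1, the brake on interferon receptors, gave 9.54, 7.39 and 9.29 CPM in untreated WT and 9.78, 9.40 and 12.02 CPM in Lkb1-/- libraries, which overlapped, with a log2 fold change of 0.25 ± 0.119 (FDR = 0.081). Blocking on the replicate number gave 0.25 for Socs1 (FDR = 0.019), with upper quartile scaling 0.33 (FDR = 0.027), and without untreated Lkb1-/- replicate 2 0.32 (FDR = 0.05). Leaving out Lkb1-/- replicate 3 gave 0.08 (FDR = 0.62), and WT replicate 2 0.14 (FDR = 0.37). Cish had a log2 fold change of 0.37 ± 0.219 (FDR = 0.16) untreated and -0.27 ± 0.212 (FDR = 0.3) after IL-1β. Socs5 was at 0.03 ± 0.0652 (FDR = 0.73) and Socs6 at 0.10 ± 0.0895 (FDR = 0.36) in untreated cells, and Socs6 was called with upper quartile scaling (0.18, FDR = 0.023). After IL-1β the value for Socs5 was -0.10 ± 0.0653 (FDR = 0.18), and it was called with the replicate block (FDR = 0.046) and without IL-1β-treated WT replicate 3 (-0.17, FDR = 0.046), while leaving out IL-1β-treated Lkb1-/- replicate 1 gave -0.07 (FDR = 0.46). With the replicate block, 5 of 8 members were called in each of these 2 comparisons, while 64.3% of all genes were called untreated and 65.9% after IL-1β.

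**Figure D4:**
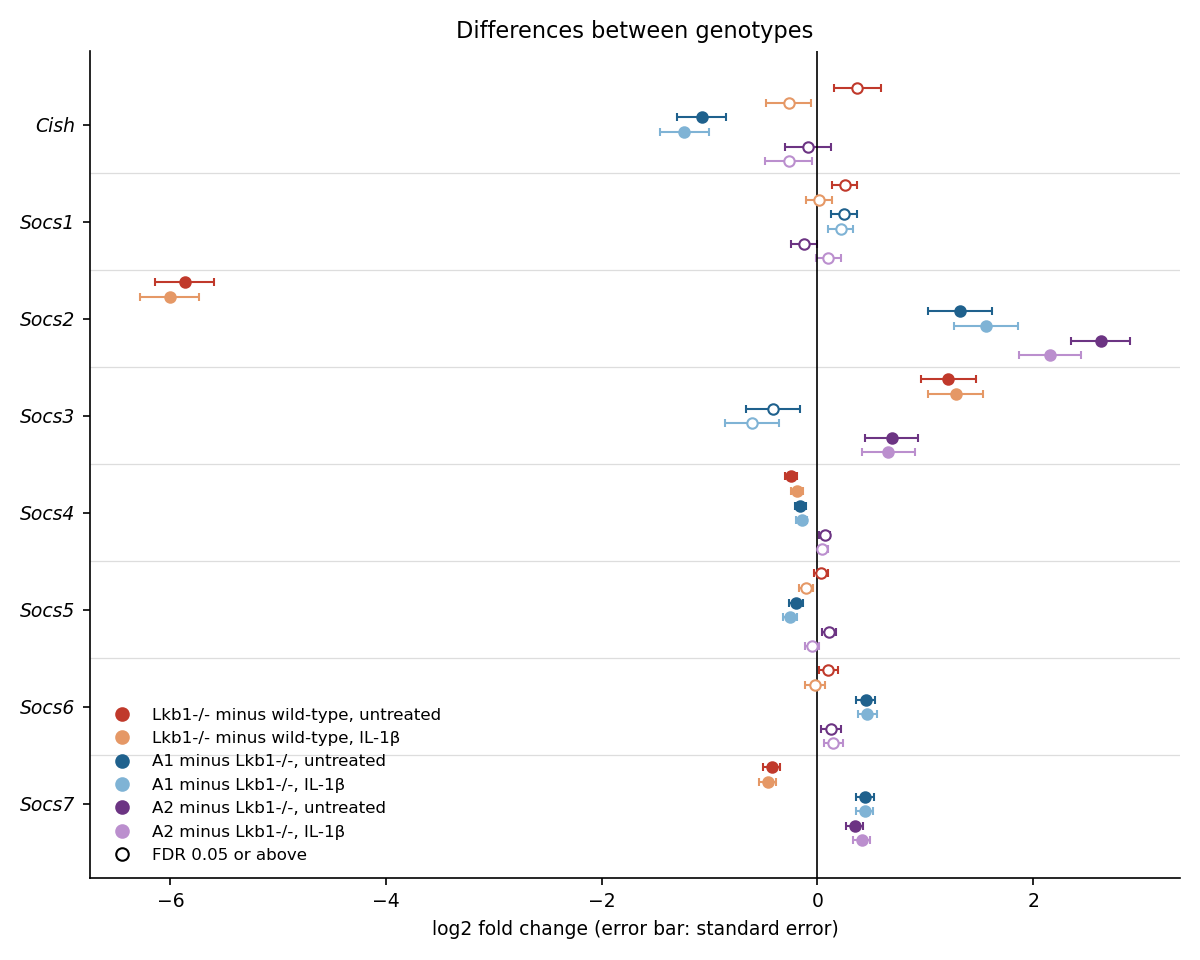
Log2 fold changes of the 8 SOCS family genes with standard errors for Lkb1-/- against WT MEFs and for clones A1 and A2 against Lkb1-/- MEFs, untreated and after IL-1β; filled points have an FDR under 0.05. Socs2 lies near -6 in Lkb1-/- against WT and above 1 in both clones against Lkb1-/-, and Socs3 in A2 and Socs3 in A1 lie on opposite sides of 0.

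The comparison of the clones with Lkb1-/- MEFs asks which of these levels change further when Crtc2 is edited as well. Socs2 and Socs7 rose in both clones under both treatments, whereas a fall of Cish, Socs4 and Socs5 and a rise of Socs6 were called in A1 and not in A2. In untreated A1 MEFs, 3 members were called higher and 3 lower, beside 18.9% and 16.4% of all genes, and in untreated A2 MEFs 3 were called higher and 0 lower, beside 17.1% and 15.1%. After IL-1β, the counts were 3 higher and 3 lower in A1 (19.4% and 17.3% of all genes) and 3 higher and 0 lower in A2 (17.1% and 15.8%). Both comparisons use the same Lkb1-/- libraries, so the clones' values are not independent of each other. The median log2 fold change of the 8 members was 0.04 in A1 and 0.11 in A2, beside 0.02 and 0.02 over all genes, in untreated cells.

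Socs2 gave 1.22, 1.51 and 1.82 CPM in untreated A1 libraries and 2.34, 4.40 and 4.51 CPM in untreated A2 libraries. All 6 of these lay above the 3 untreated Lkb1-/- libraries and far below the WT libraries, and each A2 library exceeded each A1 library. The log2 fold change over Lkb1-/- MEFs was 1.33 ± 0.297 (FDR = 0.0014) in A1, or 2.51-fold, and 2.62 ± 0.276 (FDR = 3.8e-07) in A2, or 6.17-fold. After IL-1β, the libraries gave 1.52, 1.89 and 1.65 CPM in A1 and 1.61, 2.53 and 3.55 CPM in A2, with log2 fold changes of 1.56 ± 0.296 (FDR = 0.00028) and 2.16 ± 0.284 (FDR = 6.4e-06). Against WT, Socs2 was still lower, with log2 fold changes of -4.54 ± 0.248 in untreated A1 (FDR = 1.6e-12, 23.3-fold lower) and -3.24 ± 0.226 in untreated A2 (FDR = 6.8e-11, 9.47-fold lower). The other tested genes of chromosome 10 had a median of 0.39 in A1 and 0.27 in A2 over Lkb1-/- MEFs, and the 25 genes near Socs2 medians of 0.45 and 0.16. The part of these shifts in the rise of Socs2 was not tested.

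Socs3 was called higher than in Lkb1-/- MEFs in A2, while its values in A1 were lower than in Lkb1-/- MEFs without passing the test. Untreated A1 libraries gave 32.3, 34.1 and 41.8 CPM and untreated A2 libraries 51.0, 79.5 and 101 CPM. The A1 values overlapped those of Lkb1-/- MEFs, and so did the lowest A2 value. In A2 the log2 fold change was 0.69 ± 0.249 (FDR = 0.039), and the call was lost without Lkb1-/- replicate 1 (0.61, FDR = 0.11) or 2 (0.69, FDR = 0.09) and without A2 replicate 2 (0.68, FDR = 0.068) or 3 (0.48, FDR = 0.17). The other tested genes of chromosome 11 had a median of 0.34 in untreated A2, and the 78 within 2 Mb of Socs3 a median of 0.43, with 42 called higher and 2 lower. In untreated A1 the medians were 0.29 for the chromosome and 0.29 within 2 Mb, opposite in sign to Socs3, and the part of these shifts in the Socs3 values was not tested. In A1 it was -0.41 ± 0.25 (FDR = 0.23), which was called with the replicate block (-0.41, FDR = 0.0062), without the filter on low counts (-0.42, FDR = 5.5e-05) and in a fit of the compared groups alone (-0.43, FDR = 0.017).

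After IL-1β, Socs3 gave 37.2, 39.2 and 55.1 CPM in A1 and 68.0, 104 and 145 CPM in A2. The log2 fold change of A1 over Lkb1-/- MEFs was -0.61 ± 0.249 (FDR = 0.062), and it was called with the replicate block (-0.60, FDR = 0.00013), with DESeq2 (-0.62, FDR = 0.034), with upper quartile scaling (-0.60, FDR = 0.037), without the filter (-0.61, FDR = 6.1e-10), in a fit of the compared groups alone (-0.63, FDR = 0.023), and without Lkb1-/- replicate 1 (-0.78, FDR = 0.026) or A1 replicate 3 (-0.78, FDR = 0.03), and in replicates 2 and 3 alone (-0.68, FDR = 0.0066). A2 was higher by 0.66 ± 0.247 (FDR = 0.047), a call that was lost in a fit of the compared groups alone (0.63, FDR = 0.11), without Lkb1-/- replicate 1 (0.48, FDR = 0.2) or 2 (0.71, FDR = 0.077), and without A2 replicate 2 (0.69, FDR = 0.062) or 3 (0.35, FDR = 0.28). For Socs3, replicate 1 was the lowest and replicate 3 the highest library in all 8 groups. Against untreated WT MEFs, Socs3 was higher in both clones, by 0.81 ± 0.255 in A1 (FDR = 0.011) and 1.90 ± 0.259 in A2 (FDR = 1.7e-06).

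Cish, the other STAT5-induced inhibitor, fell in A1. It gave 1.31, 1.86 and 2 CPM in untreated Lkb1-/-, 0.829, 0.960 and 0.666 CPM in untreated A1 and 1.27, 1.64 and 1.96 CPM in untreated A2 libraries. A1 lay below every other untreated library, and A2 and Lkb1-/- overlapped. The log2 fold change of A1 over Lkb1-/- MEFs was -1.07 ± 0.228 (FDR = 0.00087) untreated and -1.24 ± 0.227 (FDR = 0.0002) after IL-1β, while A2 gave -0.09 ± 0.216 (FDR = 0.81) and -0.27 ± 0.215 (FDR = 0.38). These values rest on 25 to 92 counts per library, and with counts taken without regard to strand the fall in IL-1β-treated A1 was not called (-0.74, FDR = 0.071). The other tested genes of chromosome 9, where Cish lies, had a median of 0.32 in untreated A1, in the opposite direction.

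Socs6 rose in A1, and Socs7 in both clones. Socs6 gave 71.5, 72.4 and 75.4 CPM in untreated Lkb1-/- and 93.4, 97.3 and 108 CPM in untreated A1 libraries, without overlap, and rose by 0.45 ± 0.0894 on the log2 scale (FDR = 0.0005), beside a median of 0.17 for chromosome 18. Socs7 gave 32.8, 34.2 and 37.3 CPM in untreated A1 and 29.33, 33.45 and 35.02 CPM in untreated A2 libraries, all above the Lkb1-/- libraries. It rose by 0.44 ± 0.0801 (FDR = 0.00019) in A1 and by 0.35 ± 0.08 (FDR = 0.0021) in A2, beside chromosome 11 medians of 0.29 and 0.34, and it was not called against WT in either clone (0.02, FDR = 0.87, and -0.08, FDR = 0.42). The part of the shift of chromosome 11 was not tested.

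Socs4 and Socs5 fell slightly in A1. Socs4 fell by 0.16 ± 0.0527 on the log2 scale untreated (FDR = 0.022) and by 0.15 ± 0.0527 after IL-1β (FDR = 0.034). The Socs4 call was lost in 4 of 6 fits that left out 1 library when untreated (Lkb1-/- or A1 replicate 1 or 2, -0.16 to -0.13) and in 5 of 6 after IL-1β (any A1 replicate, Lkb1-/- replicate 2 or 3, -0.16 to -0.11). Socs5 fell by 0.20 ± 0.0653 (FDR = 0.021) untreated, a call that was lost without Lkb1-/- replicate 1 (-0.18, FDR = 0.061) or 2 (-0.17, FDR = 0.091) and without A1 replicate 1 (-0.17, FDR = 0.092), and by 0.25 ± 0.0654 (FDR = 0.0041) after IL-1β. In replicates 2 and 3 alone the untreated value was -0.18 (FDR = 0.098). Chromosome 17, which carries Socs5, had a median of -0.38 in untreated A1, and the 26 tested genes within 2 Mb a median of -0.58. Both genes lost their untreated call with unstranded counts (Socs4 -0.14, FDR = 0.08, and Socs5 -0.18, FDR = 0.056) and without the filter on low counts (Socs4 -0.17, FDR = 0.18, and Socs5 -0.21, FDR = 0.067). The Socs4 call after IL-1β was also lost with unstranded counts (-0.12, FDR = 0.13), without the filter (-0.14, FDR = 0.32) and in a fit of the compared groups alone (-0.17, FDR = 0.051). Socs1 in untreated A1 gave 12.8, 11.7 and 12.5 CPM, with a log2 fold change of 0.25 ± 0.118 (FDR = 0.11) over Lkb1-/- MEFs, which was called with the replicate block (0.25, FDR = 0.023) and without Lkb1-/- replicate 3 (0.37, FDR = 0.031), and which was 0.18 (FDR = 0.35) without Lkb1-/- replicate 2. In A2, Socs6 after IL-1β was at 0.15 ± 0.0895 (FDR = 0.22) and was called without A2 replicate 1 (0.25, FDR = 0.018) or Lkb1-/- replicate 3 (0.24, FDR = 0.041), but was 0.06 (FDR = 0.61) without A2 replicate 3 and 0.07 (FDR = 0.61) without Lkb1-/- replicate 1. Socs5 in untreated A2 was at 0.10 ± 0.0651 (FDR = 0.25), called without A2 replicate 3 (0.18, FDR = 0.044) and at 0.05 (FDR = 0.62) without A2 replicate 2.

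Compared directly, the clones differed in most members although both carry the same labelled genotype. In untreated cells, 5 members were higher and 2 lower in A2 than in A1, beside 15.8% and 16.7% of all genes, and after IL-1β 4 were higher and 1 lower, beside 15.1% and 15.6%. Socs3 was 2.14-fold higher in A2 untreated (1.096 ± 0.251, FDR = 0.0019) and 2.40-fold higher after IL-1β (1.26 ± 0.251, FDR = 0.00055). Cish was 1.98-fold higher untreated (0.99 ± 0.228, FDR = 0.0021) and 1.95-fold higher after IL-1β (0.97 ± 0.228, FDR = 0.0026), although unstranded counts gave 0.55 (FDR = 0.22) after IL-1β. Socs2 was 2.46-fold higher in A2 untreated (1.30 ± 0.244, FDR = 0.00031), and after IL-1β its log2 difference was 0.60 ± 0.248 (FDR = 0.075), called with the replicate block (0.58, FDR = 0.026), with DESeq2 (0.61, FDR = 0.043), without the filter (0.58, FDR = 0.0054) and without A2 replicate 1 (0.84, FDR = 0.008), at 0.77 (FDR = 0.0028) in replicates 2 and 3 alone, and at 0.29 (FDR = 0.42) without A2 replicate 3. Socs1 (-0.37, FDR = 0.019) and Socs6 (-0.32, FDR = 0.0082) were lower in untreated A2, Socs1 not without A1 replicate 1 (-0.34, FDR = 0.064) or A2 replicate 2 (-0.33, FDR = 0.077) or 3 (-0.34, FDR = 0.069) or in replicates 2 and 3 alone (-0.40, FDR = 0.054), and Socs6 not without A1 replicate 3 (-0.26, FDR = 0.054). Socs4 was higher in A2 by 0.23 untreated (FDR = 0.002) and 0.19 after IL-1β (FDR = 0.008). These Socs4 calls were lost without the filter (0.22, FDR = 0.053, and 0.18, FDR = 0.18), and the one after IL-1β also in a fit of the compared groups alone (0.18, FDR = 0.082). Socs5 was higher by 0.30 (FDR = 0.0011) and 0.21 (FDR = 0.02), the latter not without A1 replicate 1 (0.18, FDR = 0.077) or 3 (0.19, FDR = 0.061) or A2 replicate 2 (0.16, FDR = 0.1), without the filter (0.19, FDR = 0.13), in a fit of the compared groups alone (0.19, FDR = 0.097) or in replicates 2 and 3 alone (0.20, FDR = 0.072).

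Against WT, the 2 clones were called in 3 higher and 4 lower members (A1, 30.3% and 25.1% of all genes) and in 2 higher and 2 lower members (A2, 32.7% and 27.9%) when untreated. After IL-1β the counts were 2 higher and 4 lower in A1 (30.1% and 26.9%) and 1 higher and 4 lower in A2 (32% and 28.8%). Besides Socs2 and Socs3, Socs1 was 1.41-fold higher in untreated A1 (0.50 ± 0.119, FDR = 0.0012), and after IL-1β it was at 0.23 ± 0.119 (FDR = 0.11), called with the replicate block (0.24, FDR = 0.025), with upper quartile scaling (0.34, FDR = 0.021) and without WT replicate 3 (0.36, FDR = 0.015), and at 0.14 (FDR = 0.39) without WT replicate 2. Socs6 was 1.46-fold higher in untreated A1 (0.55 ± 0.0896, FDR = 2.3e-05), and Socs4 was lower (-0.40 ± 0.0527, FDR = 1.2e-06). Cish was lower in untreated A1 (-0.70 ± 0.231, FDR = 0.013), a value not called with unstranded counts (-0.40, FDR = 0.32) or without A1 replicate 3 (-0.57, FDR = 0.072), and lower after IL-1β (-1.504 ± 0.226, FDR = 7.7e-06). In A2 after IL-1β, the calls of Socs4, Socs5 and Cish (-0.14, -0.15 and -0.54) had FDR values of 0.024, 0.049 and 0.035, and each was lost in at least 3 of 6 fits that left out 1 library. These were WT replicates 1 and 2 and A2 replicate 1 for Socs4 (-0.14 to -0.10), the same 3 and A2 replicate 3 for Socs5 (-0.15 to -0.08), and every library but WT replicate 2 for Cish (-0.57 to -0.44). All 3 calls were also lost with upper quartile scaling (-0.05, -0.06 and -0.45, FDR = 0.32, 0.43 and 0.079) and without the filter (-0.13, -0.14 and -0.53, FDR = 0.29, 0.25 and 0.15), and those of Socs4 and Socs5 in replicates 2 and 3 alone (-0.09 and -0.12, FDR = 0.15 and 0.22). Socs6 in untreated A2 (0.23, FDR = 0.035) and Socs5 in untreated A1 (-0.17, FDR = 0.032) each lost the call in 4 of 6 such fits, Socs6 without WT or A2 replicate 2 or 3 (0.14 to 0.19) and Socs5 without WT replicate 1 or 2 or A1 replicate 1 or 3 (-0.18 to -0.14). Without the filter neither was called (0.19, FDR = 0.069, and -0.19, FDR = 0.081), nor was Socs6 with unstranded counts (0.18, FDR = 0.11) or Socs5 with upper quartile scaling (-0.09, FDR = 0.29) or in replicates 2 and 3 alone (-0.13, FDR = 0.2). Socs4 in untreated A2 (-0.18, FDR = 0.0064) was not called with upper quartile scaling (-0.09, FDR = 0.089). The value for Socs5 in untreated A2 was 0.13 (FDR = 0.086), called with the replicate block (0.13, FDR = 0.014) and with upper quartile scaling (0.22, FDR = 0.0073), and Socs3 in IL-1β-treated A1 (0.67, FDR = 0.028) lost the call without WT replicate 1 (0.54, FDR = 0.12) or A1 replicate 3 (0.46, FDR = 0.15). Socs6 in IL-1β-treated A2 was at 0.13 (FDR = 0.24), and was called without A2 replicate 1 (0.19, FDR = 0.041) with upper quartile scaling (0.21, FDR = 0.0077) and in replicates 2 and 3 alone (0.23, FDR = 0.02), while leaving out A2 replicate 3 gave 0.08 (FDR = 0.41).

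The comparison of IL-1β-treated with untreated cells asks which members respond to the cytokine within each genotype. Few did by the calls of the fit without the replicate block: Cish rose in WT MEFs and Socs5 fell in A2 MEFs. In WT MEFs 1 member was called higher and 0 lower, beside 1.53% and 0.731% of all genes, and in A2 MEFs 0 higher and 1 lower, beside 2.81% and 2.86%. No member was called in Lkb1-/- MEFs (2.65% and 2.09% of all genes) or in A1 MEFs (1.2% and 0.788%), where 0 and 1 members had an unadjusted p under 0.05. With the replicate block 2, 1, 1 and 3 members were called in WT, Lkb1-/-, A1 and A2 MEFs, while 9.3%, 14.8%, 9.61% and 17.9% of all genes were. Socs3 was among them in WT, Lkb1-/- and A2 MEFs, called higher in each. DESeq2 called 0 members in Lkb1-/- and A1 MEFs, beside 1106 and 546 of all 17522 genes.

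Socs3 was higher after IL-1β in all 12 pairs of libraries with the same genotype and replicate number. Its mean went from 20.6 ± 1.58 to 27.5 ± 4.86 CPM in WT, from 47.8 ± 7.18 to 66.8 ± 15.4 in Lkb1-/-, from 36.0 ± 5.04 to 43.8 ± 9.84 in A1 and from 77.1 ± 24.9 to 105 ± 38.3 in A2 (SD, n = 3), with overlap of the treated and untreated libraries in every genotype. Without the block the log2 fold changes were 0.42 ± 0.256 (FDR = 0.6), 0.48 ± 0.248 (FDR = 0.39), 0.28 ± 0.25 (FDR = 0.79) and 0.45 ± 0.246 (FDR = 0.37). With the replicate block they were 0.40 ± 0.124 (FDR = 0.046), 0.47 ± 0.115 (FDR = 0.006), 0.27 ± 0.118 (FDR = 0.18) and 0.44 ± 0.112 (FDR = 0.0065). In a fit that kept every gene with any count, all 4 genotypes were called (0.39, FDR = 0.0017, 0.49, FDR = 3.5e-06, 0.31, FDR = 0.035, and 0.47, FDR = 1e-05). The SE of these Socs3 values was 0.0897 to 0.0931 there, against 0.246 to 0.256 in the main fit. For Socs4 in untreated A1 over Lkb1-/- MEFs, which lost its call there, the SE was 0.0826 against 0.0527. Calls without the filter thus came with changed SEs, and the reason for this was not tested.

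Cish gave 1.41, 1.06 and 1.54 CPM in untreated and 2.27, 2.15 and 2.72 CPM in IL-1β-treated WT libraries, without overlap, which rest on 46 to 105 counts each. The log2 fold change was 0.83 ± 0.217 (FDR = 0.046), or 1.78-fold, and it was 0.20 ± 0.214 in Lkb1-/-, 0.03 ± 0.239 in A1 and 0.01 ± 0.216 in A2 MEFs. The call in WT was lost in all 6 fits that left out 1 WT library (0.69 to 0.93, FDR = 0.068 to 0.29), with unstranded counts (0.96, FDR = 0.14), with DESeq2 size factors (0.81, FDR = 0.053), without the filter (0.81, FDR = 0.098) and in a fit of the WT groups alone (0.84, FDR = 0.081). With the replicate block it was 0.83 (FDR = 0.011).

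Socs5 gave 95.3, 108 and 91.2 CPM in untreated and 79.7, 87.2 and 76.8 CPM in IL-1β-treated A2 libraries, without overlap. It fell by 0.27 ± 0.0652 on the log2 scale (FDR = 0.012), and the call was lost without untreated A2 replicate 2 (-0.19, FDR = 0.11), without IL-1β-treated A2 replicate 3 (-0.21, FDR = 0.083) and in a fit of the A2 groups alone (-0.25, FDR = 0.35). The values in the other genotypes were 0.01 ± 0.0652 in WT, -0.12 ± 0.0652 in Lkb1-/- and -0.18 ± 0.0654 (FDR = 0.24, and 0.013 with the replicate block) in A1 MEFs. Socs2 in A2 went from 3.75 ± 1.23 to 2.56 ± 0.970 CPM (SD, n = 3), with a log2 fold change of -0.55 ± 0.231 (FDR = 0.2, and 0.04 with the replicate block), which was called without untreated A2 replicate 1 (-0.79, FDR = 0.018) or IL-1β-treated A2 replicate 3 (-0.82, FDR = 0.041) without the filter on low counts (-0.53, FDR = 0.018) and in replicates 2 and 3 alone (-0.56, FDR = 0.026), and which was -0.30 (FDR = 0.58) without IL-1β-treated A2 replicate 1.

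**Figure D5:**
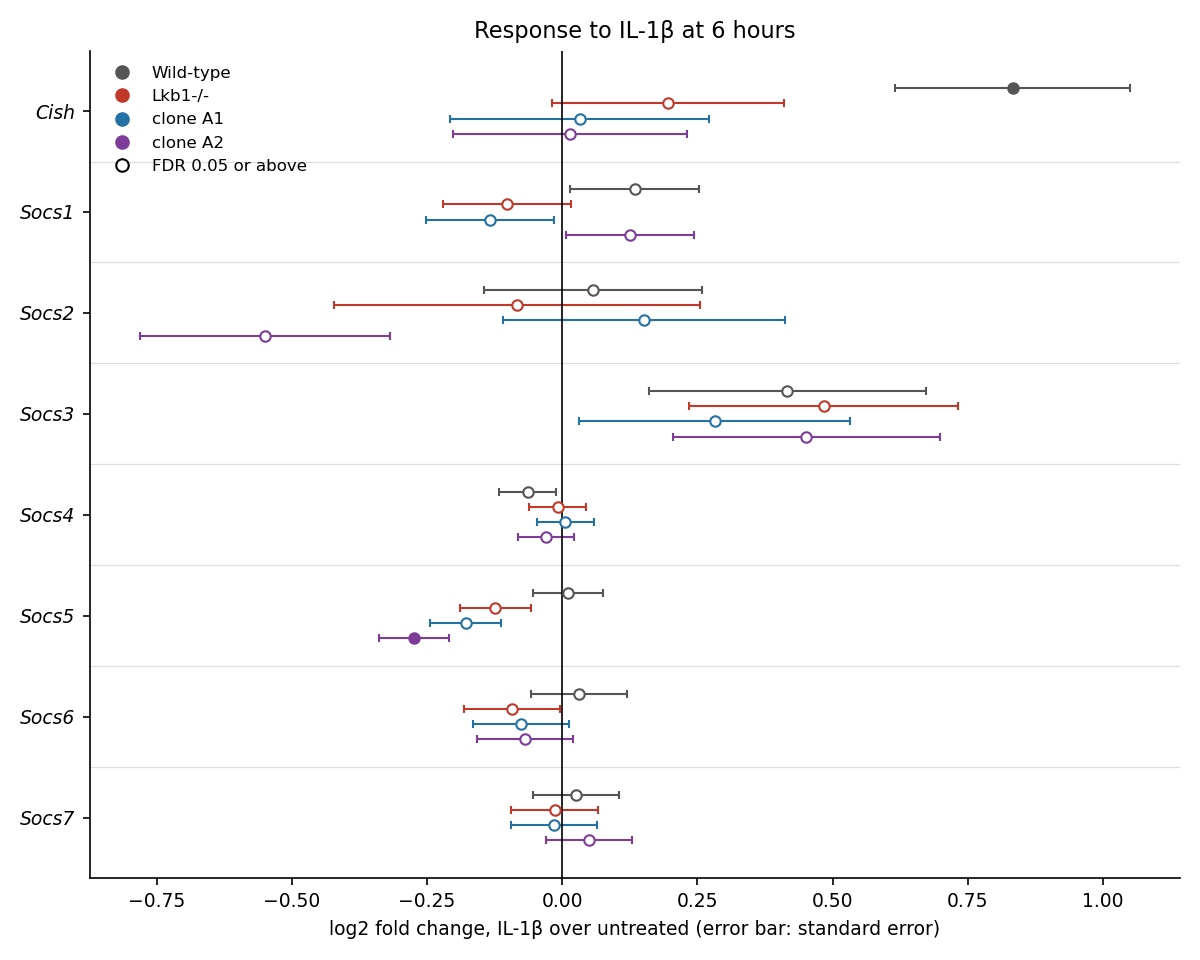
Log2 fold change of each SOCS family gene after IL-1β over untreated cells in each genotype, with standard errors. Filled points have an FDR under 0.05 in the fit without the replicate block. Only Cish in WT (0.83) and Socs5 in A2 (-0.27) are filled, and Socs3 lies between 0.28 and 0.48 in all 4 genotypes.

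The difference of responses between genotypes was tested as an interaction. No member was called between Lkb1-/- and WT, between A1 and Lkb1-/- or between A2 and Lkb1-/- MEFs by edgeR, with or without the replicate block, or by DESeq2, and 1, 0 and 0 members had an unadjusted p under 0.05. Over all genes, 0.245%, 0.0285% and 0% were called, and 985, 433 and 388 had an unadjusted p under 0.05. The largest member value was that of Cish between Lkb1-/- and WT MEFs, -0.64 ± 0.305 (FDR = 0.89). For Socs3 the differences were 0.07 ± 0.356, -0.20 ± 0.352 and -0.03 ± 0.349, so the call in some genotypes and not in others with the block does not show that the responses differ.

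The genes that act with the SOCS family were read from lists of ligands, receptors, kinases, inhibitors and targets. Counts of these lists in untreated Lkb1-/- over WT MEFs stand beside 30.1% of all genes called higher and 25.8% called lower, and counts after IL-1β beside 1.2% to 2.81% of all genes called higher and 0.731% to 2.86% called lower within a genotype. Of 7 tested IL-6 family ligands, which signal through gp130, 5 were called higher and 2 lower in untreated Lkb1-/- over WT MEFs, among them Il6 (3.96) and Il11 (3.34 on the log2 scale), and the study itself described IL-6 family cytokines from these libraries, so the list is not independent evidence. In untreated A1 and A2 over Lkb1-/- MEFs 1 ligand was higher and 4 and 5 lower, beside 18.9% and 16.4% of all genes in A1 and 17.1% and 15.1% in A2. After IL-1β, 2 ligands rose in each genotype, and in Lkb1-/- MEFs these were Il6 (5.96 ± 0.267, FDR = 5e-12) and Lif (3.05 ± 0.155, FDR = 2.7e-11).

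Of 17 tested JAK-STAT coupled receptors, 9 were higher and 4 lower in untreated Lkb1-/- MEFs. Osmr, the oncostatin M receptor, rose from 28.6 to 223 CPM (2.96, FDR = 1.3e-13), and Epor rose from 0.248 to 2.37 CPM (3.22, FDR = 1.2e-09), while Cntfr was at 0 counts in untreated WT libraries and at 0.417 CPM in Lkb1-/- MEFs. IL-1β raised 5 receptors in WT, 5 in Lkb1-/-, 2 in A1 and 5 in A2 MEFs, among them Ifnar2 (1.02), Ifngr2 (0.79) and Il10rb (0.77) in Lkb1-/- MEFs. Of 10 JAK kinases and STAT factors 2 were higher and 3 lower in untreated Lkb1-/- MEFs, shares near those of all genes. Stat5b, a STAT known to induce Socs2 and Cish, fell by 1.19 ± 0.159 on the log2 scale (FDR = 1.7e-06), from 63.0 to 27.7 CPM, while Stat5a rose by 0.57 (FDR = 0.014) and Jak3 by 0.43 (FDR = 0.0059). IL-1β lowered Jak3 in Lkb1-/- MEFs (-0.52, FDR = 0.016).

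Among 12 other inhibitors of JAK-STAT signaling, such as PIAS proteins and phosphatases, 3 were higher and 5 lower in untreated Lkb1-/- MEFs, including Usp18 (-3.21), Cblb (0.95) and Ptpn1 (0.35), and 0 were called after IL-1β in any genotype. Of the 8 partners of the SOCS box in ubiquitin ligases, 2 were higher and 4 lower in untreated Lkb1-/- MEFs. Elob, which encodes Elongin B, rose by 0.60 ± 0.0597 (FDR = 2.4e-08), and Ube2f and Cul5 fell by 0.53 and 0.45 on the log2 scale (FDR = 1.6e-08 and 1.5e-07). None of these 8 were called after IL-1β. Of 17 other tested SOCS box genes 4 were higher and 4 lower, with Rab40b (2.44), Neurl2 (-1.24) and Asb13 (-0.75) the furthest, and IL-1β raised Spsb1 in Lkb1-/- MEFs (1.26 ± 0.219, FDR = 0.00085). The median log2 fold change of untreated Lkb1-/- over WT MEFs was 1.08 for the IL-6 family ligands, 0.30 for the receptors, -0.19 for the JAK kinases and STAT factors, -0.12 for the other inhibitors, -0.09 for the SOCS box partners and 0.04 for the other SOCS box genes, beside 0.06 for the SOCS family and 0.04 for all genes tested.

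Of 15 known STAT3 targets, 8 were higher and 2 lower in untreated Lkb1-/- over WT MEFs (median 0.43), with Lcn2, Saa3 and Cebpb the furthest, and 5 were higher and 1 lower among IL-1β-treated cells (median 0.21), beside 30.2% and 27.1% of all genes. Lcn2 was at 0 counts in untreated WT libraries and 0.901 CPM in Lkb1-/- libraries, Saa3 went from 0.0161 to 1.72 CPM, and Cebpb rose by 2.002 on the log2 scale (FDR = 1.4e-07). After IL-1β 7, 6, 6 and 7 of the 15 rose in WT, Lkb1-/-, A1 and A2 MEFs, and 0, 1, 0 and 2 fell, Jak3 in Lkb1-/- and A2 MEFs and Fgl2 in A2 MEFs. Those that rose in Lkb1-/- MEFs included Saa3 (6.33), Lcn2 (6.02) and Icam1 (3.36). Whether STAT3, NF-κB or another factor raised these genes was not tested. STAT5 targets split, with 3 of 7 higher and 3 lower in untreated Lkb1-/- MEFs, including Cebpb (2.002), Igf1 (1.93) and Ccnd1 (-1.56).

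For comparison, some of the inhibitors that act in the IL-1 and NF-κB pathway itself rose after IL-1β in each genotype, and the others were mostly not called. Of these 14 genes, 6 rose in WT, 7 in Lkb1-/-, 5 in A1 and 8 in A2 MEFs, and 0, 1, 0 and 1 fell. Their median log2 fold changes were 0.94, 0.59, 0.20 and 0.61. In Lkb1-/- MEFs Zc3h12a, which encodes an RNase that degrades cytokine mRNAs, rose by 2.95 ± 0.165 (FDR = 1.1e-10), Tnip3 by 2.11 ± 0.313 (FDR = 0.00016) and Il1rn, the IL-1 receptor antagonist, by 2.01 ± 0.473 (FDR = 0.013). In untreated Lkb1-/- over WT MEFs 7 were higher and 3 lower, with Irak3, Il1r2 and Il1rn the furthest. Irak3 rose from 0.0484 to 6.18 CPM and Il1rn from 0.101 to 4.08 CPM, and Il1r2 was at 0 counts in untreated WT libraries and at 0.185 CPM in Lkb1-/- libraries.

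For the 3 members whose group means span at least 1 on the log2 CPM scale, the genes with the most similar pattern over the 8 group means were found among 11355 genes by Pearson correlation, given as a description over 8 points that share genotypes and treatments. For Socs2 these were Plekhb2 (r = 0.998), Abca7 (0.997) and 0610010F05Rik (0.995), which fell from 123, 36.3 and 86.3 CPM in untreated WT to 56.0, 20.5 and 37.9 CPM in Lkb1-/- MEFs, a smaller change than that of Socs2. Abca7 also lies on chromosome 10. For Socs3 they were Mtf2 (0.996), Slc25a27 (0.986) and Ddx39b (0.984), and Slc25a27 went from 1.80 CPM in untreated WT to 8.36 CPM in IL-1β-treated A2 MEFs. For Cish they were Znrd1 (0.994), Zswim4 (0.977) and Tgif1 (0.972), all lower in untreated A1 than in the other untreated groups, with Znrd1 at 13.1 CPM in A1 and 17.5 CPM in Lkb1-/- MEFs.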

How the data were processed

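RNA-seq of 24 libraries was deposited as STAR read counts per gene, whole numbers that the authors made with Trim Galore 0.6.0 and STAR 2.7.8a on mm10 per the submitters' processing notes, with GENCODE vM24 by the methods. The deposited counts of the second strand were used, which held 95.5% to 96.0% of stranded counts. The 4 lines naming no gene (26.7% to 34.4% of read pairs) were left out. The labels and the methods name different library kits. Symbols and positions were taken from GENCODE M21, the same build, which named 55144 of 55471 identifiers. Counts on genes were 38842901 to 48594394 per library, which sets the counting error, and all intervals here cover the spread between libraries.

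Genes were kept with edgeR filterByExpr (minimum count 10, minimum total 15), leaving 17522. TMM factors were 0.922 to 1.09 and the common BCV 0.129. One model over the 8 groups was fitted with edgeR 4.0.16 (limma 3.58.1, R 4.3.3), using the older quasi-likelihood test, 19 contrasts and Benjamini-Hochberg adjustment over all genes tested (FDR threshold 0.05). The code was tested on simulated data. Alternatives were unstranded counts, DESeq2 size factors, upper quartile scaling, the newer quasi-likelihood method, no filter, DESeq2 1.42.0, a fit of the compared groups alone, the replicate number as a block, and leaving out each library. A fit of replicates 2 and 3 alone was added after seeing the data.

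Libraries of different groups with the same replicate number deviated together. All 84 same-number correlations of deviations from group means were over 0.1 among 11355 genes with a mean log2 CPM above 1. The lowest was 0.122 and the median 0.445. Over all 17522 genes tested, 69 of 84 were over 0.1. The main fit, which gives the calls, did not use this pairing, and the replicate block was kept as an alternative.

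The members and lists were chosen with earlier results of these data known. Named genes were the 8 members, Stk11 and Crtc2, the 3 genes most like each member whose group means span at least 1 on the log2 scale, and in each list up to 3 genes with the largest change among those called in untreated Lkb1-/- over WT cells and in the IL-1β response of Lkb1-/- cells. Ghr, Fgl2, Gm47708, and the levels of Osmr and Epor, were chosen after their values were seen. A gene that this rule names and a list of target genes are not reported here.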

Additional observations from a re-analysis of the deposited data

Results flagged for a closer look

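The changes from Lkb1-/- MEFs differed between the 2 clones, which carry the same labelled genotype, by the edgeR test of A2 against A1. In untreated cells the log2 difference was -0.37 for Socs1, 1.30 for Socs2, 1.096 for Socs3, 0.23 for Socs4, 0.30 for Socs5, -0.32 for Socs6 and 0.99 for Cish. After IL-1β it was 1.26 for Socs3, 0.19 for Socs4, 0.21 for Socs5, -0.31 for Socs6 and 0.97 for Cish. Each clone is 1 clone, so a difference between clones and a difference between the edits they carry cannot be told apart.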

How the results depend on the processing

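Of 2424 recomputed gene values, 2270 kept their side of the threshold, 106 lost a call, 48 gained one and 0 calls reversed, while 125 values that were not called changed sign. The count of members called in the IL-1β response of WT MEFs went from 1 to 0 with unstranded counts, DESeq2 size factors or the compared groups alone, to 2 with the replicate block, and to 0 in every fit that left out 1 library. In Lkb1-/- and A1 MEFs the count of responding members was 0, and 1 without the filter and with the block. In A2 MEFs it was 1, and 3 without the filter, 3 with the block, 0 with the compared groups alone, 2 in replicates 2 and 3 alone and 0 to 2 without 1 library. For A2 over WT after IL-1β it went from 5 to 3 with DESeq2 size factors, 3 with upper quartile scaling, 2 without the filter, 3 with the compared groups alone and 2 to 4 without 1 library, and for A2 over A1 after IL-1β from 5 to 3 with the compared groups alone. Over all genes, A2 over WT after IL-1β had 10656 calls, and 10672, 10770, 10789 and 9814 in these 4 settings, while A2 over A1 after IL-1β went from 5374 to 4163. In replicates 2 and 3 alone, 6 member values lost a call and 4 gained one. Of 17455 genes tested in that fit, 921, 1534, 899 and 2556 were called after IL-1β in WT, Lkb1-/-, A1 and A2 MEFs. The differences of responses for Lkb1-/- over WT, A1 over Lkb1-/- and A2 over Lkb1-/- had 147, 10 and 6 calls in it. The cause was not tested. The replicate block, which pairs libraries by number, added 13 member calls, each given beside its result, and changed no other call. Over all genes, the IL-1β calls in WT, Lkb1-/-, A1 and A2 MEFs were 396, 831, 348 and 995, with the block 1629, 2601, 1684 and 3133, and without the filter 954, 1428, 908 and 1643. DESeq2 called 624 in WT and 546 in A1, and the A2 groups alone gave 243. The differences of responses for Lkb1-/- over WT, A1 over Lkb1-/- and A2 over Lkb1-/- had 43, 5 and 0 calls, with the block 311, 36 and 18, without the filter 347, 141 and 68, with DESeq2 111, 11 and 9, with upper quartile scaling 76, 3 and 1, and with unstranded counts 3 for A1. Upper quartile scaling shifted the median log2 fold change of all genes by up to 0.110 in comparisons with WT. Cish, at 25 to 105 counts, and Socs2 without LKB1 are limited by depth.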
